A study of Saccharomyces cerevisiae with 5 samples.

Results

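The transcripts described here encode 9 proteins that bind messenger RNA in the yeast nucleus and accompany it towards the cytoplasm. They are the SR-like proteins Npl3, Gbp2 and Hrb1, the hnRNP-type and tail-binding proteins Nab2, Hrp1, Pab1 and Pub1, and the cap-binding subunits Sto1 and Cbc2. The genes were chosen by name, as the spots whose platform symbol or synonym was NPL3, GBP2, HRB1, NAB2, HRP1, PAB1, PUB1, STO1 or CBC2. All 9 were found on both platforms, among 5539 named genes on the platform used for 4 arrays and 5583 on that used for 1 array. Each array of Saccharomyces cerevisiae material carried RNA recovered with zz-tagged Yra1 in channel 1 and RNA recovered with zz-tagged Mex67 in channel 2. Mex67 is the main export receptor of yeast mRNA, and Yra1 is an adaptor protein that binds RNA and Mex67. The question behind this pairing is whether the adaptor and the receptor bring down different transcripts. The 5 arrays form 1 group without a dye swap in the labels. The sources used here name no strain, growth condition or dye.

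A growing transcript is bound first at its cap by the nuclear cap-binding complex, then along its length by SR-like and hnRNP-type proteins, and at its tail by poly(A)-binding proteins. Many of these proteins leave the nucleus with the transcript, are released in the cytoplasm and are brought back by importins. Yra1 and Mex67 join the same particles. The values below concern the messages that encode these proteins, not the proteins or the RNA that they bind.

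Values are log2 ratios of the channels relative to the median of each array, averaged over the spots of a gene. Whether the Yra1 or the Mex67 channel was divided by the other is unknown, so "above 0" and "below 0" describe the ratio as deposited, without saying with which protein a transcript was richer. The test ran over replicates 2 to 5, which share a platform. Replicate 1 came from another platform and is given beside them. Separate cultures are not mentioned in the labels, so the p-values reflect array-to-array spread that may be technical. Between the 4 arrays, Pearson r across genes ran from -0.03 to 0.13. Genes are not independent replicates. The deposited array median was 1.96 on replicate 2 and between -2.81 and -1.45 on replicates 3 to 5. Means that rest on replicate 2 therefore carry a doubt about its direction. On replicate 1 the median was 0.32, also above 0, so comparisons with replicate 1 and results over 5 arrays carry the same doubt. The sign of replicate 1 was not turned in any setting. Only ratios were used, so signal over background is unknown, and the number of arrays limits the precision.

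For none of the 9 transcripts did the ratio of the Yra1 to the Mex67 precipitate, in whichever direction it was taken, lie beyond the spread between arrays. By limma with Benjamini-Hochberg adjustment over all genes, 0 of 9 passed the threshold of 0.05, with adjusted p from 0.834 to 0.999, beside 0 of 5539 genes (0%). At an unadjusted p under 0.05 there were also 0 of 9, where 5.42% of all genes lay. The means were above 0 for 5 genes and below 0 for 4, and their median was 0.0028, against -0.015 over all genes tested. The SD over arrays exceeded the absolute mean for all 9 genes, and the 95% interval of each mean included 0.

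In order of their means over the 4 arrays, STO1 stood at 0.90, NAB2 at 0.46, PAB1 at 0.10, NPL3 at 0.013, HRP1 at 0.0028, GBP2 at -0.46, HRB1 at -0.50, CBC2 at -0.54 and PUB1 at -0.60. No step between neighbours in this order exceeded the SD of either gene over arrays. Nor do the intervals show equal recovery: the narrowest, that of PAB1, ran from -0.73 to 0.93, and the widest, that of HRB1, from -1.77 to 0.76. Of the 5539 genes, 11.0% had a larger absolute mean than STO1 and 24.4% a larger one than PUB1. Both the order and these shares rest on the direction of replicate 2. Turning its sign put NAB2 first at 0.67, GBP2 next at 0.50 and then HRB1 at 0.20, followed by CBC2 at 0.049, NPL3 at -0.030, PAB1 at -0.30, STO1 at -0.31, HRP1 at -0.34 and PUB1 at -0.43. The shares were then 49.7% for STO1, 36.1% for PUB1 and 19.6% for NAB2.

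**Figure D1:**
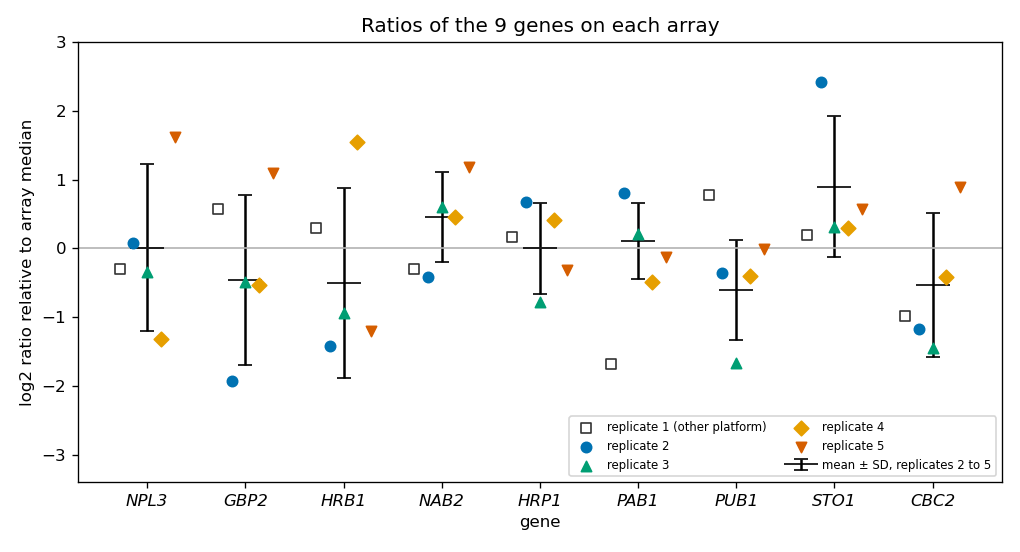
Log2 ratio of each of the 9 genes (x axis) on every array, relative to the array median (y axis, log2 units), with the mean and SD of replicates 2 to 5 as bars and replicate 1 of the other platform as open squares. Points lie on both sides of 0 for every gene but STO1, and the bars of all 9 genes cross 0.

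**Figure D2:**
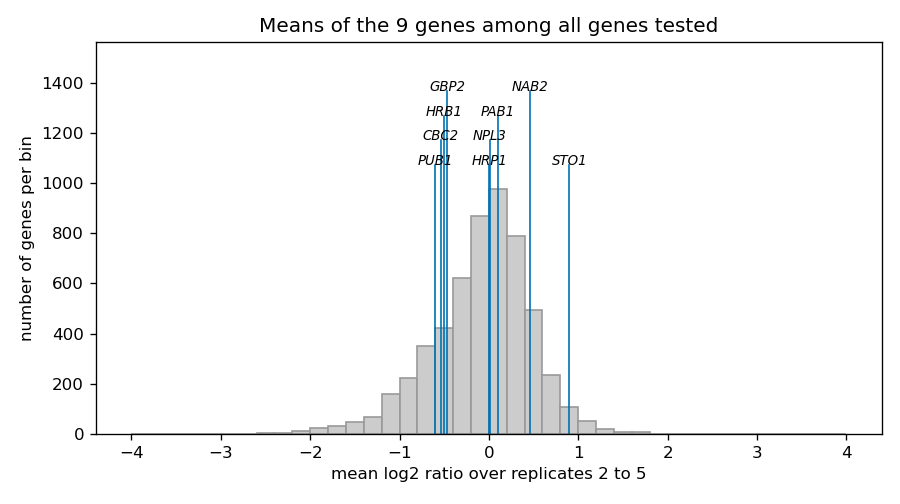
Histogram of the mean log2 ratio over replicates 2 to 5 for the 5539 genes tested (x axis, log2 units; y axis, genes per bin), with the means of the 9 genes as vertical lines. The lines lie between -0.60 for PUB1, below which 16.5% of the genes lie, and 0.90 for STO1, above which 2.64% lie.

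NPL3 (YDR432W) encodes an SR-like protein that is loaded on transcripts during their synthesis and released from them in the cytoplasm after phosphorylation. Its log2 ratios were 0.086, -0.34, -1.31 and 1.62 on replicates 2 to 5, and -0.30 on replicate 1. It was the lowest of the 9 genes on replicate 4 and the highest on replicate 5. The mean was 0.013 ± 1.22 (SD, n = 4; limma adjusted p = 0.997). On replicate 2 its spots read -0.79 and 0.97, the widest gap between spots of a gene among the 9 genes on any of the 4 arrays, so the value there is an average of opposite signs.

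GBP2 (YCL011C) and HRB1 (YNL004W) encode closely related SR-like proteins that reach transcripts through the THO complex. GBP2 had log2 ratios of -1.93, -0.48, -0.53 and 1.10 on replicates 2 to 5, and 0.58 on replicate 1. HRB1 had -1.41, -0.94, 1.54 and -1.21 on replicates 2 to 5, and 0.30 on replicate 1. Each gene was thus below 0 on 3 of the 4 arrays, but the array that went the other way was replicate 5 for GBP2 and replicate 4 for HRB1. The means were -0.46 ± 1.24 for GBP2 (SD, n = 4; limma adjusted p = 0.900) and -0.50 ± 1.38 for HRB1 (adjusted p = 0.899). Without replicate 2, GBP2 stood at 0.027, and without replicate 5 at -0.98. HRB1 stood at -0.20 without replicate 2, -0.36 without replicate 3 and -0.27 without replicate 5. Without replicate 4, the array above 0, it stood at -1.19 (limma adjusted p = 0.872). It was then the only member with an unadjusted p under 0.05, where 275 of 5539 genes had one. No member had one when another of the 4 arrays was left out, where 231 to 340 genes did.

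GBP2 minus HRB1, taken within each array, was 0.27, -0.52, 0.46, -2.08 and 2.30 on replicates 1 to 5. The difference pointed both ways, and its mean was 0.087 ± 1.59 (SD, n = 5). An exact two-sided sign-flip permutation test gave p = 0.875, and 0.875 after adjustment over the 2 pairs tested. The smallest p that 5 arrays allow is 0.0625.

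NAB2 (YGL122C) encodes a zinc finger protein that binds poly(A), limits tail length and docks at the nuclear basket. Its log2 ratios were -0.42, 0.61, 0.46 and 1.18 on replicates 2 to 5. They were above 0 on 3 of the 4 arrays. On replicate 1, where it has a pair of spots that are not adjacent in number, these read -0.14 and -0.46 and averaged -0.30. The mean over the 4 arrays was 0.46 ± 0.66 (SD, n = 4; limma adjusted p = 0.855), with a 95% interval from -0.42 to 1.33. It rested in part on replicate 5, without which it was 0.22.

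HRP1 (YOL123W) encodes an hnRNP-type protein that is also a cleavage factor acting at the 3′ end of transcripts. Its log2 ratios were 0.68, -0.78, 0.42 and -0.31 on replicates 2 to 5, and 0.17 on replicate 1. The arrays divided evenly around 0, and the mean was 0.0028 ± 0.67 (SD, n = 4; limma adjusted p = 0.999). Only 27 of the 5539 genes had a smaller absolute mean.

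PAB1 (YER165W) encodes the main poly(A)-binding protein of the cytoplasm, which also enters the nucleus and links the tail to initiation factors at the cap. Its log2 ratios were 0.81, 0.21, -0.49 and -0.12 on replicates 2 to 5, with the smallest SD of the 9 genes (mean 0.10 ± 0.55, SD, n = 4; limma adjusted p = 0.979). Replicate 1 stood apart from these at -1.69, lower than all but 3.42% of the genes of that array. With replicate 1 added, the mean was -0.26 ± 0.93 (SD, n = 5).

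PUB1 (YNL016W) encodes a protein that binds U-rich stretches and is related to mammalian TIA-1. Its log2 ratios were -0.35, -1.66, -0.40 and -0.0067 on replicates 2 to 5, below 0 on all 4 arrays, with a mean of -0.60 ± 0.73 (SD, n = 4; limma adjusted p = 0.848). The mean was -0.25 without replicate 3, its lowest array. On replicate 1 it was at 0.77, the highest of the 9 genes there. Its spots lie in the outermost columns of a print block. On replicates 2 and 5 both spots held the same deposited value. On replicate 5 the median of the surrounding spots equalled that value.

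STO1 (YMR125W) and CBC2 (YPL178W) encode the large and the small subunit of the nuclear cap-binding complex. STO1 had log2 ratios of 2.42, 0.31, 0.29 and 0.58 on replicates 2 to 5, and 0.20 on replicate 1. It was thus above 0 on all 5 arrays, but the share of all genes with 1 sign on 5 arrays was not counted. Replicate 2 lay far above the rest, and the other 4 values were at 0.58 or below. The mean was 0.90 ± 1.02 (SD, n = 4), a 1.87-fold ratio, with a 95% interval from -0.15 to 1.95 and a limma adjusted p = 0.834. Without replicate 2 the mean was 0.39, and with its sign turned it was -0.31. CBC2 had log2 ratios of -1.17, -1.45, -0.41 and 0.89 on replicates 2 to 5, and -0.99 on replicate 1. It was below 0 on 4 of 5 arrays, with a mean of -0.54 ± 1.05 (SD, n = 4; limma adjusted p = 0.862). CBC2 stood at -1.01 without replicate 5, the array above 0, at -0.23 without replicate 3 and at -0.33 without replicate 2.

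STO1 and PUB1 were the members with 1 sign on all 4 arrays, 2 of 9, in a table where 14.2% of all genes had 1 sign. STO1 was above 0, as 7.11% of all genes were on all 4 arrays, and PUB1 was below 0, as 7.13% were. Turning the sign of replicate 2 ended this for both genes and gave 1 sign to NAB2, 1 of 9, where 13.6% of all genes then had it. Both genes are printed in the outermost columns of a block.

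STO1 minus CBC2 was 1.19, 3.59, 1.76, 0.70 and -0.31 on replicates 1 to 5. STO1 was above CBC2 on 4 of 5 arrays, by 1.39 ± 1.45 log2 units on average (SD, n = 5). The exact two-sided sign-flip permutation test gave p = 0.125, and 0.25 after adjustment over the 2 pairs. The smallest p possible with 5 arrays is 0.0625, so neither pair could have passed 0.05. The difference was 0.84 without replicate 2, -0.050 with the sign of replicate 2 turned, and 0.38 over the 4 arrays once the median of the surrounding spots was removed.

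**Figure D3:**
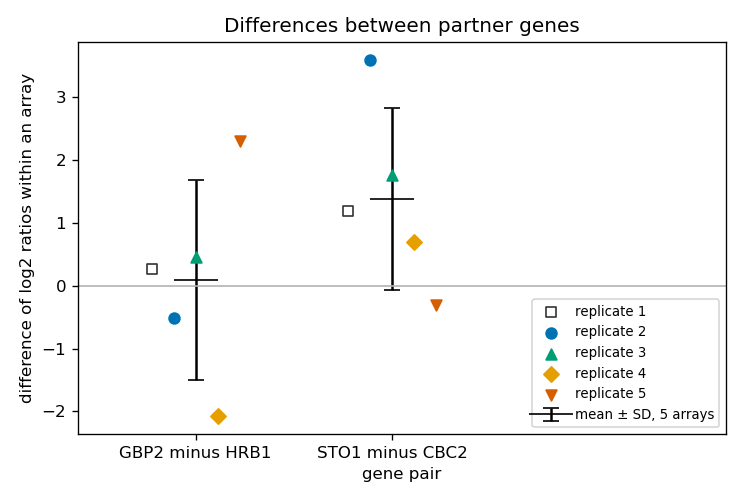
Difference of log2 ratios between partner genes within each of the 5 arrays (y axis, log2 units), for GBP2 minus HRB1 and STO1 minus CBC2 (x axis), with the mean and SD over 5 arrays as bars. The first pair spans 0 from -2.08 to 2.30, and the second lies above 0 on 4 of 5 arrays with replicate 2 at 3.59.

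Duplicate spots of a gene are printed side by side. On the 4 arrays the spots of 8, 9, 7 and 9 of the 9 genes had the same sign on replicates 2, 3, 4 and 5, and the median gap between spots was 0.14, 0.34, 0.61 and 0.16 log2 units in that order. Between arrays, the median gap of the 9 genes ran from 0.57 to 1.53 over the 6 pairs, so the spots of replicate 4 differed by more than the closest pair of arrays, replicates 3 and 5. Some adjacent spots hold an identical deposited value, as those of STO1 and PUB1 do on replicate 5, which makes their gap 0. Replicates 3 and 5 carry the same code in their titles, and 5 of the 9 genes had the same sign on both, where 51.9% of all genes did.

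The spots around a gene moved with it. For each spot, the median of all other spots within 2 rows and columns in the same block was taken. These include the gene's own duplicate spot and any spots holding the same deposited value, so part of the agreement below is built in. For PUB1 on replicate 5 the local median equalled its own value. Of the 36 values of the 9 genes on the 4 arrays, 34 had the sign of this local median, or 94.4%, where 81.2% of the values of all genes did. The median absolute ratio of the 9 genes was 0.59 before and 0.19 after the local median was removed, against 0.55 and 0.24 for all genes. On replicate 2 the surroundings of GBP2 stood at -2.40 and those of STO1 at 1.63. On replicate 3 those of PUB1 stood at -1.83, and on replicate 5 those of NPL3 at 1.69.

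With the local median removed, the means moved towards 0 for 5 of the 9 genes that had stood farthest from it. STO1 was at 0.29 ± 0.36, CBC2 at -0.093 ± 0.16, GBP2 at -0.038 ± 0.44, HRB1 at 0.15 ± 0.38 and PUB1 at 0.089 ± 0.18 (SD, n = 4 each). The signs of HRB1 and PUB1 turned. The part of position in the ratios was not tested further. NAB2 kept most of its mean, at 0.38 ± 0.74, with 1.42 on replicate 5. NPL3 and HRP1, which had lain near 0, were at -0.43 ± 0.61 and 0.22 ± 0.61, and each rested on replicate 2, at -1.32 for NPL3 and 1.09 for HRP1. PAB1 was at -0.097 ± 0.054, with -0.046, -0.066, -0.17 and -0.11 on replicates 2 to 5, below 0 on every one of these arrays but within 0.2 of its surroundings. In this setting too, 0 of 9 genes passed in limma.

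**Figure D4:**
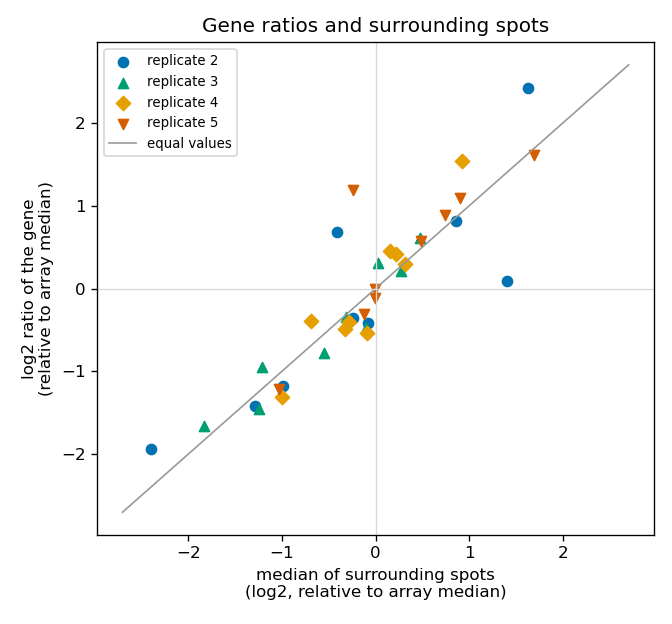
Log2 ratio of each of the 9 genes on replicates 2 to 5 (y axis) against the median of the spots around it (x axis), both relative to the array median in log2 units, with the line of equal values. Of the 36 points, 34 lie in the quadrants of equal sign. The spots around a gene include its own duplicate spot.

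Spots that held exactly the value of an adjacent spot made up 28.6, 8.07, 14.6 and 37.4% of all spots on replicates 2 to 5. NPL3, NAB2, HRP1 and PAB1 held no such value. PUB1 held one on 4 arrays, HRB1 on 3, STO1 and CBC2 on 2 and GBP2 on 1. With these spots left out, GBP2 was at -0.98 and CBC2 at -0.92, each without its value above 0 on replicate 5, and HRB1 was at -0.45. STO1 and PUB1 then had fewer than 3 arrays and no value.

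**Figure D5:**
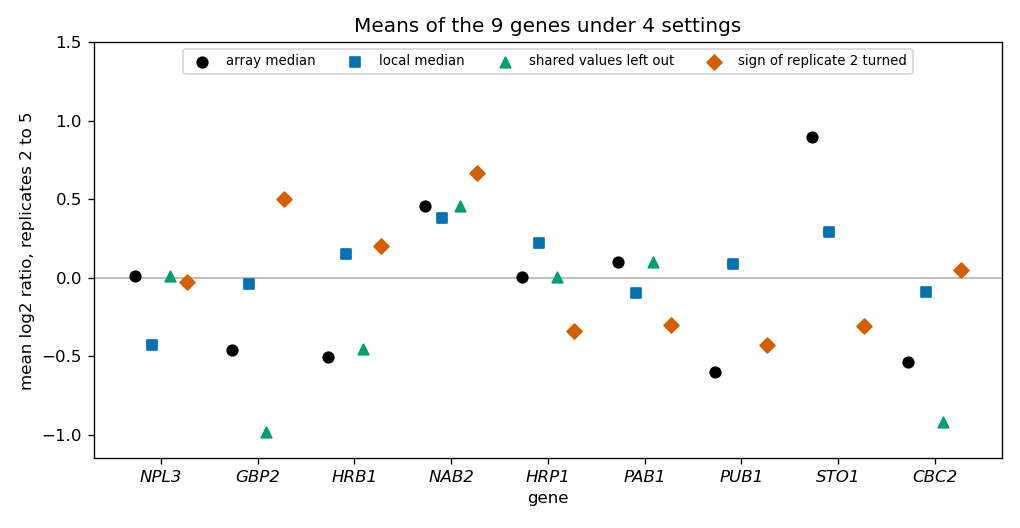
Mean log2 ratio of each of the 9 genes over replicates 2 to 5 (y axis, log2 units) with the array median removed, with the local median removed, with shared values left out and with the sign of replicate 2 turned. NAB2 is the only gene above 0 in all 4 settings, between 0.38 and 0.67. It held no shared value, so leaving such values out could not change its mean. Without centring, which is not shown, NAB2 was at -0.52. STO1 and PUB1 have no value with shared values left out.

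Proteins that bring these shuttling proteins back to the nucleus, modify them or dock them at the pore were measured through 11 genes. Of these, 6 had a mean above 0 and 5 below, 0 passed over all genes, and 1 was below 0 at an unadjusted p under 0.05, where 3.99% of all genes were. The median of the list was 0.041, against -0.015 for all genes. The gene was KAP104, which encodes the importin of Nab2 and Hrp1, with log2 ratios of -1.34, -0.85, 0.059 and -3.02 on replicates 2 to 5 and a mean of -1.29 ± 1.29 (SD, n = 4; limma adjusted p = 0.834). KAP104 was at -0.46 on replicate 1, and relative to its surroundings its mean was -1.09. Turning the sign of replicate 2 gave -0.62. GLC7, the gene of a phosphatase that acts on Npl3, ranged from -2.54 to 3.26 over the 4 arrays, with a mean of 0.72 ± 2.42 (adjusted p = 0.910), or 0.015 with the local median removed. It was at -1.23 on replicate 1, and at 1.99 with the sign of replicate 2 turned.

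Partners of the cap and the poly(A) tail were measured through 13 genes, 5 with a mean above 0 and 8 below. Of these, 0 passed over all genes and 0 at an unadjusted p under 0.05, and the list median was -0.12. SUP35, the gene of a release factor that binds Pab1, averaged 0.88 ± 1.16 (SD, n = 4; limma adjusted p = 0.834). EAP1, whose product binds the cytoplasmic cap-binding factor, averaged -0.90 ± 1.22 (adjusted p = 0.834). Replicate 1 went the other way for both, at -0.86 for SUP35 and 0.56 for EAP1. With the local median removed SUP35 was at 0.54 and EAP1 at -0.59. Turning the sign of replicate 2 gave 0.37 for SUP35 and -1.03 for EAP1.

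Other proteins with RNA recognition motifs were measured through 10 of 12 genes, 7 above 0 and 3 below, with 0 past the test over all genes and a median of 0.068. At an unadjusted p under 0.05, 1 of the 10, NAB3, was below 0, where 3.99% of all genes were, and 0 were above. NAB3, which encodes an RNA-binding factor of transcription termination, was below 0 on all 5 arrays. It stood at -2.78, -1.09, -3.17 and -0.92 on replicates 2 to 5 and -1.80 on replicate 1. Of all genes, 7.13% were below 0 on all of replicates 2 to 5, and the share over 5 arrays was not counted. Its mean was -1.99 ± 1.15 (SD, n = 4; limma adjusted p = 0.834), against -0.34 ± 2.12 relative to its surroundings. Turning the sign of replicate 2 gave -0.60 for NAB3. PES4, the second gene of smallest p in this list, averaged 0.50 ± 0.43 (SD, n = 4; limma adjusted p = 0.851) but stood at -2.40 on replicate 1, at 0.095 with the local median removed and at 0.20 with replicate 2 turned.

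The gene most like each member was sought as the smallest root mean square difference of log2 ratios over the 5 arrays, among 5530 other genes. For STO1 this was YMR262W, at a difference of 0.26, and for CBC2 it was ISW1, a chromatin remodelling gene, at 0.20. For PUB1 it was MSN2, a transcription factor gene, at 0.25, and for GBP2 it was CHS5, a gene of cargo sorting at the Golgi, at 0.21. The median difference from all genes lay between 0.98 and 1.40 for the 9 genes. A nearest gene is the smallest of 5530 differences, so it lies below this median by the way it was chosen. Whether any pair is more alike than such a choice gives was not tested. MSN2 is printed in the row next to PUB1 in block 14, and CHS5 lies in block 30 with GBP2. The other 7 nearest genes lie in blocks other than that of their member.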

How the data were processed

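Each of the 5 arrays gave 1 ratio of its 2 channels per spot, deposited by the authors as a log10 value. The base was worked out from the values: of 2000 spots per array, raising 10 to the deposited log10 value gave a quotient of integers no larger than 3000, to within 1.2e-09 on the log scale, for 1.65 to 18.45%. Base 2 gave this for 0.55% or fewer and base e for 0.65% or fewer. The sources used here name no scanner, background correction, normalization or build, so no coordinates are printed. Values were converted to log2, centred on each array's median and averaged per gene. Names came from the platform annotation, of which 5534 of 5539 genes matched the RefSeq table of assembly R64. On the platform of 4 arrays, 11138 of 12800 spots had a gene name, and 6695 of 7680 on the other. The 12800 spots were read as 32 blocks of 20 by 20. The main test was limma 3.58.1 under R 4.3.3 (lmFit, eBayes), two-sided, on each gene's 4 log2 ratios against 0, for genes on at least 3 arrays. It was tested on simulated data. Pair differences used exact sign-flip tests in Python 3.11.15. The members, lists and tests were chosen with earlier results of these data known. The text names all members, the 2 genes of smallest p per list, and the nearest gene of the 3 members with the largest absolute means and of others discussed. Alternatives changed centring, position, scaling, spot summary, shared values, the handling of arrays 3 and 5 (which share an unexplained title code), weights, moderation and platform, and left out each array.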

Additional observations from a re-analysis of the deposited data

Results flagged for a closer look

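In 2 of the 9 genes, 1 of the 4 arrays lay farther from the rest than Dixon's critical value for the gap over the range allows. Chance gives about 1 such group in 20, and of all 5539 genes 366 (6.61%) had such an array. STO1 stood at 2.42 on replicate 2, a gap of 0.865 of its range, where its surroundings stood at 1.63. HRB1 stood at 1.54 on replicate 4, a gap of 0.841 of its range, where its surroundings stood at 0.92. The part of position in these values was not tested.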

How the results depend on the processing

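In 16 alternative settings 0 genes passed over all genes, and no member passed (lowest adjusted p = 0.692). At an unadjusted p under 0.05 limma gave 203 to 369 genes in these settings. Of 142 member means under alternatives, 30 changed sign, of which 10 were of NPL3 and 6 of HRP1, the members with means nearest 0. Taking the median over spots, requiring all 4 arrays and robust moderation could not change a member mean. Each member has a pair of spots and values on all 4 arrays, and robust moderation alters only the variances. These fixed values are counted among the 142. Some changes of sign follow from the setting itself, as without centring or with replicate 2 turned. The cause of the others was not tested. Without centring, which moved the median of all genes to -0.99, the members' median was -0.97, the list medians were -0.93 (import, modification and docking), -1.09 (cap and tail partners) and -0.91 (other RRM proteins), and NPL3 was at -0.96, NAB2 at -0.52, HRP1 at -0.97, PAB1 at -0.87 and STO1 at -0.074. With the block median NPL3 was at -0.044. With the local median removed NPL3 was at -0.43, HRB1 at 0.15, PAB1 at -0.097 and PUB1 at 0.089. GBP2 minus HRB1 was then at -0.19 over replicates 2 to 5, where it was 0.041 with the array median removed. With arrays scaled to equal spread NPL3 was at -0.0037 and HRP1 at -0.076. With replicates 3 and 5 averaged NPL3 was at -0.20. With replicate 2 turned NPL3 was at -0.030, GBP2 at 0.50, HRB1 at 0.20, HRP1 at -0.34, PAB1 at -0.30, STO1 at -0.31, CBC2 at 0.049 and STO1 minus CBC2 at -0.050. With array weights NPL3 was at -0.099 and HRP1 at -0.18. With replicate 1 added NPL3 was at -0.050 and PAB1 at -0.26. Leaving out each array in turn gave -0.52 to 0.45 for NPL3, -0.98 to 0.027 for GBP2, -0.22 to 0.26 for HRP1, -0.13 to 0.30 for PAB1, -0.47 to 0.63 for GBP2 minus HRB1 and 0.84 to 1.81 for STO1 minus CBC2. The settings for the pair differences and the list medians were chosen after seeing the data. The title code as a random block could not be fitted: limma estimated no correlation for 4 arrays with 3 codes. STO1 and PUB1 gave no value with shared values left out. Both precipitates are on each array, so every ratio compares them within an array. No further pairing of arrays was possible because they form 1 group.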

Other observations

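Among the members not described by a nearest gene above, the smallest root mean square differences over the 5 arrays were 0.32 for NPL3 with EAF3, 0.28 for HRB1 with RAD1, 0.19 for NAB2 with RAD33, 0.15 for HRP1 with YIR016W and 0.18 for PAB1 with CAP2. CAP2, which encodes a subunit of the actin capping protein, stood at -1.48 on replicate 1, where PAB1 stood at -1.69. Replicate 1 entered the choice of CAP2, so its value there says nothing further about that of PAB1. These genes are given as values only.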
